A study of Mus musculus with 6 samples.

Results

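The mitochondrial genome of the mouse was represented by 37 of the 56636 rows of a gene expression table from RAW264.7 cells, a macrophage-like mouse line. The members are all rows whose symbol starts with mt-, and they comprise 13 mRNAs, 2 rRNAs and 22 tRNAs. The cells carried the wild-type (WT) genotype and were given either vehicle or 25-HC for 24 h, with 3 libraries per group. The labels give neither a dose nor the full name of 25-HC, and no further allele or agent distinguishes the groups. Values are TPM, transcript abundance scaled for length and for the library total, and the number of reads behind a value is unknown. The labels do not tie the libraries to separate cultures, so p-values reflect the scatter of these libraries alone, and that scatter may be technical.

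The mitochondrial genome is a small circle that is copied into RNA from both strands as long precursors. Enzymes cut these precursors at the tRNAs that lie between most of the other genes, which releases the rRNAs and mRNAs, and most mRNAs then receive short poly(A) tails. The mRNAs encode core membrane subunits of respiratory complexes I, III, IV and V, the rRNAs build the mitochondrial ribosome, and all other proteins of the organelle come from nuclear genes. Because genes of one strand start out on a shared precursor, their unequal mature levels are known to depend on processing and decay. In the mouse annotation (GENCODE release M21) 12 of the 13 mRNA genes lie on one strand, and mt-Nd6 lies on the other with 8 of the 22 tRNA genes.

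Fragments of mitochondrial DNA also sit in the nuclear chromosomes as annotated pseudogenes, and 7 of them, all on chromosome 1, match mitochondrial genes almost base for base. A short RNA read from such a stretch fits both places equally well, so the following sequences (GENCODE release M21, build GRCm38) bear on the values of these 7 genes. The first set is shown because it holds a single difference, in capitals, over the first 60 bases of mt-Nd3 and of its copy Gm28438.
mt-Nd3: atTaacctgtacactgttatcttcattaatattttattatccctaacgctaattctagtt
Gm28438: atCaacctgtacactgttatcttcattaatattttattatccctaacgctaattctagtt
The change is T3C, counted from 1 at the first base of mt-Nd3, and the other aligned bases are identical. The copy Gm29216 holds the last part of mt-Co1, and the next set gives bases 1063 to 1122 of mt-Co1, where the only difference, A1066T, is in capitals.
mt-Co1: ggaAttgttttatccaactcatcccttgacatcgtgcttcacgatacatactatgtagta
Gm29216: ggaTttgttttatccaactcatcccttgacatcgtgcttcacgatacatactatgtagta
For contrast, bases 445 to 504 of mt-Co2 are set beside an identical copy (Gm28661) and a diverged one (Gm13341, on chromosome 2). Capitals mark the 6 bases at which Gm13341 differs.
mt-Co2: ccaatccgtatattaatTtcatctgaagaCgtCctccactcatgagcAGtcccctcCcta
Gm28661: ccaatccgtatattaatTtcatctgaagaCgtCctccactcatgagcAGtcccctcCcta
Gm13341: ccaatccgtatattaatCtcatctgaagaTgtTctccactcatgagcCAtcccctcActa

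A search with the mitochondrial genes against all annotated transcripts found 22 nuclear copies that aligned over at least 100 bases at 85% identity or more. Of these, 7 had an identity of at least 99%, and 6 of them were listed at 314 TPM or more in every library, while Gm28439 was at 0 in 5 libraries. The other 15 had an identity of at most 97.6% and were listed at 0.19 TPM or less in every library, 12 of them at 0 throughout. Gm28661, identical to mt-Co2 over 681 bases, was at 1785, 1061 and 1822 TPM in vehicle 1, 2 and 3, against 3213, 3524 and 2807 TPM in 25-HC 1, 2 and 3. Gm13341, the diverged copy of the same gene (95.9% identity), was listed at 0 in 5 libraries and at 0.1 TPM in 25-HC 3.

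**Figure D1:**
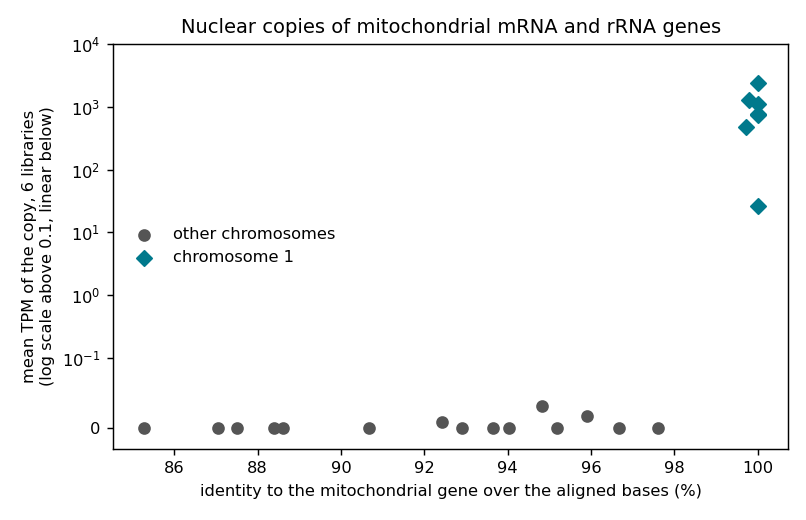
Mean TPM over the 6 libraries (vertical axis, log scale above 0.1 and linear below) against identity to the mitochondrial gene in percent (horizontal axis) for the 22 nuclear copies. The 7 copies on chromosome 1 (diamonds) lie at 99% identity or more, with Gm28439 lowest among them through vehicle 2 alone, and the 15 others (circles) lie at or near 0.

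How TPM were divided between a mitochondrial gene and its near-identical copy differed from library to library. The copy of mt-Co2 held 81.7% to 96.2% of the TPM of the pair, that of mt-Nd4l (Gm10222) 68.1% to 94.9% and that of mt-Atp6 (Gm10925) 64.1% to 100%. The copy of mt-Co3 (Gm28437) held 47.4% to 87.7%, that of mt-Co1 (Gm29216) 32.7% to 75.7% and that of mt-Nd3 (Gm28438) 31.5% to 73.1%. Only Gm28439, the copy of part of mt-Nd4, stood at 0 in 5 libraries, with 159 TPM in vehicle 2. Taken as rows of their own, 2 of the 7 copies were higher and 1 lower in every 25-HC library, against 22.6% and 8.1% of all genes tested. mt-Atp6, which encodes a membrane subunit of the ATP synthase, shows the consequence for a single row: it was listed at 265.0, 426 and 35.5 TPM with vehicle, against 46.2, 0 and 97.8 TPM with 25-HC. The library with 0 was 25-HC 2, where Gm10925 was at 910 TPM.

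Adding each copy to its gene, weighted by length, brought the 25-HC libraries closer than the mitochondrial row alone for 5 of the 7 pairs. The coefficient of variation among these libraries went from 60.1% to 5.00% for mt-Co2, from 59.6% to 1.49% for mt-Co3, from 49.5% to 6.73% for mt-Nd4l, from 102% to 6.30% for mt-Atp6 and from 10.7% to 4.31% for mt-Nd3. It was 1.56% before and 1.95% after for mt-Co1, and 4.43% in both versions for mt-Nd4, whose copy was at 0 there. The 6 mRNAs with no such copy had coefficients of 1.40% to 8.32% there. In the 25-HC libraries the copy held at least 81.7% of the pair for mt-Co2, 83.5% for mt-Nd4l and 88.0% for mt-Atp6. There the sum mostly follows the larger copy row, so a coefficient below that of the smaller row was largely set in advance. Gm28438 alone was at 580, 583 and 560 TPM in 25-HC, closer together than its sum with mt-Nd3 at 793, 831 and 762 TPM. Since reads can fit either member of a pair, the rows of the 7 pairs are uncertain, and both versions are given below. Whether any RNA came from the nuclear copies themselves was not tested.

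**Figure D2:**
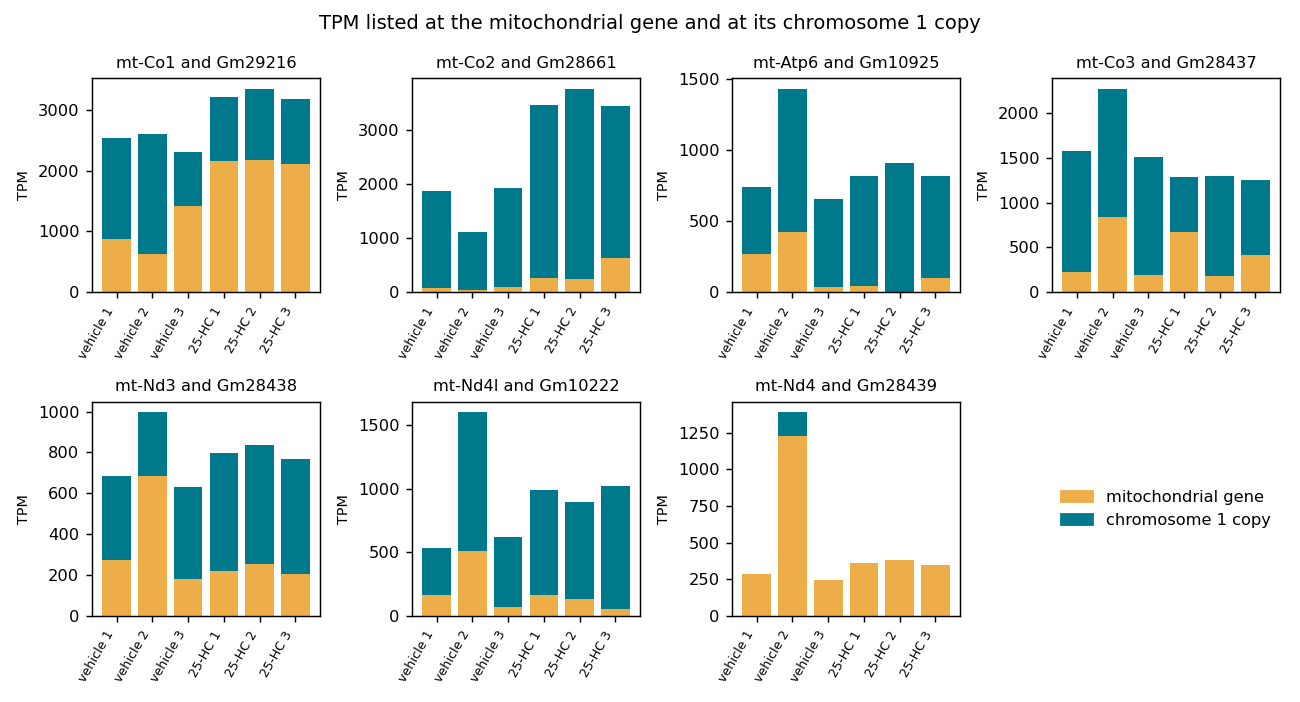
TPM (vertical axes, from 0) in each of the 6 libraries for the 7 pairs, stacked as the mitochondrial gene (yellow) and its chromosome 1 copy (blue). For mt-Co3 the division inside the bars varies among the 25-HC libraries while the bar heights are close, and for mt-Co1, mt-Nd3 and mt-Nd4 the division varies little there.

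The libraries themselves were uneven. Between 11971 and 12005 genes reached 1 TPM in the 25-HC libraries, against 11238, 9492 and 11994 in vehicle 1, 2 and 3. Median-ratio rescaling divided each library by a factor, the median ratio of its tested genes to their geometric mean over the 6 libraries. This factor was 0.973, 0.409 and 1.32 for vehicle 1, 2 and 3, and 1.26, 1.24 and 1.26 for 25-HC 1, 2 and 3. Relative to the 25-HC mean, the longest sixth of all genes had a median log2 ratio of -0.78, -1.63 and 0.039 in vehicle 1, 2 and 3. The same median over the mitochondrial mRNAs with copies added was -0.83, 0.32 and -0.55, so only vehicle 2 had a median above 0 for these transcripts. All 10 macrophage markers passed the filter and summed to 2532 to 3478 TPM, but Itgam and Ptprc were at 0.53 and 0.28 TPM in vehicle 2. Of the 10, 5 were higher and 1 lower without overlap in 25-HC, against 22.6% and 8.1% of all genes tested. After median-ratio rescaling 3 were higher and 2 lower, against 18.7% and 17.9% of all genes. The part of these markers in the results was not tested. Summed markers reached at most 4.58 TPM for neutrophils, 4.79 for lymphocytes, 0.76 for fibroblasts and 0.27 for epithelial cells.

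The test across all genes (limma on log2(TPM + 1), Benjamini-Hochberg adjustment over 12092 genes) called none of the mitochondrial transcripts. It called 1 gene in all (0.00827%), the small nucleolar RNA Snord16a, and 1352 genes had an unadjusted p under 0.05. Of the 37 members, 15 passed the filter of a mean of at least 1 TPM, and 4 of the 13 mRNAs had an unadjusted p under 0.05 (mt-Nd2, mt-Cytb, mt-Co1 and mt-Co2). On deposited values 5 of the 13 mRNAs were higher in every 25-HC library than in every vehicle library, against 22.6% of all genes tested. None was lower in every 25-HC library, against 8.1% of all genes. The median log2 difference of the 13 mRNAs was 0.16, and that of all genes was 0.52. With copies added the 5 mRNAs without overlap upward were mt-Nd2, mt-Cytb, mt-Co1, mt-Co2 and mt-Atp8, and mt-Co3 was lower without overlap (22.6% and 8.1% of all genes in that table). The median became 0.26, and again limma called none of the 13.

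As a share of the library, the 13 mRNAs made up 0.531%, 1.15% and 0.612% of the TPM of vehicle 1, 2 and 3, against 0.983%, 0.960% and 0.958% of 25-HC 1, 2 and 3. The 7 copies took a further 0.606%, 0.703% and 0.567% in vehicle and 0.705%, 0.807% and 0.698% in 25-HC. With copies added by length the share was 1.02%, 1.71% and 1.12% in vehicle and 1.61%, 1.68% and 1.58% in 25-HC. The 25-HC libraries were thus above vehicle 1 and 3 and below vehicle 2. In bulk RNA, fewer cells with a transcript and less of it per cell cannot be told apart.

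**Figure D3:**
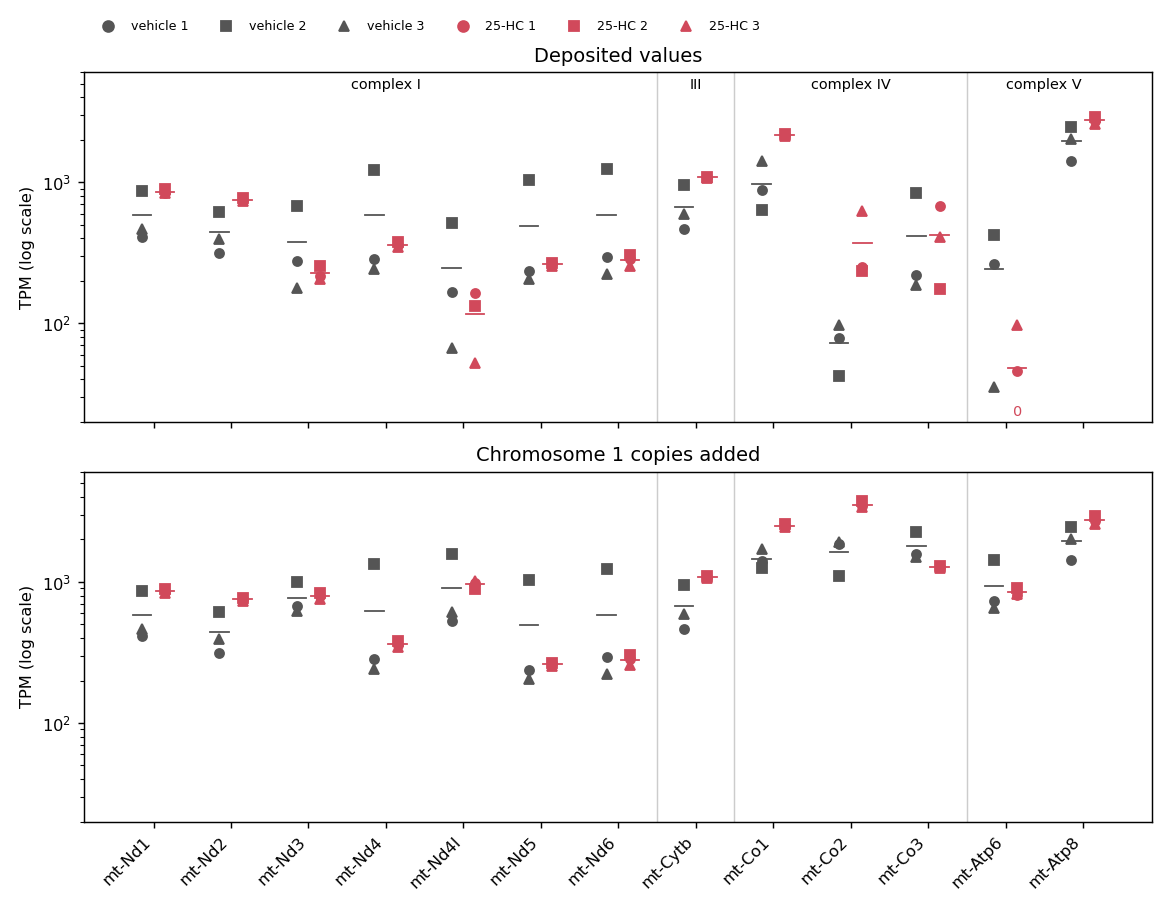
TPM (log scale) of the 13 mRNAs by complex in 3 vehicle libraries (grey) and 3 25-HC libraries (red), as deposited (top) and with chromosome 1 copies added (bottom), with bars at group means. With copies added, mt-Co2 stands higher and mt-Co3 lower in all 25-HC libraries, and vehicle 2 (grey squares) stands far above the other libraries for mt-Nd4, mt-Nd5 and mt-Nd6.

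Complex I, the NADH dehydrogenase, takes 7 of its subunits from the mitochondrial genome. mt-Nd1 and mt-Nd2 encode membrane subunits of its proton-pumping arm and have no near-identical copy. mt-Nd1 was at 411, 866 and 467 TPM in vehicle 1, 2 and 3, against 843, 896 and 833 TPM in 25-HC 1, 2 and 3. Vehicle 2 lay among the treated libraries, so the groups overlapped (log2 difference 0.64, SE 0.30, limma adjusted p = 0.389), whereas the 25-HC mean was 1.83-fold that of vehicle 3. mt-Nd2 was at 313, 616 and 396 TPM with vehicle, against 751, 769 and 733 TPM with 25-HC. Its groups did not overlap, with a 1.70-fold ratio of means, a log2 difference of 0.82 (SE 0.27) and a limma adjusted p of 0.389. After median-ratio rescaling the log2 difference was 0.19 and the groups overlapped through vehicle 2, which that rescaling divides by 0.409.

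mt-Nd3 encodes a small subunit near the junction of the 2 arms of complex I, and mt-Nd4l another small membrane subunit. With copies added mt-Nd3 was at 680, 994 and 625 TPM with vehicle, against 793, 831 and 762 TPM with 25-HC, with vehicle 2 above all treated libraries. Its log2 difference was -0.52 as deposited and 0.08 with the copy, both with overlapping groups (limma adjusted p = 0.482 and 0.793). mt-Nd4l with its copy was at 526, 1590 and 612 TPM with vehicle, against 984, 887 and 1010 TPM with 25-HC. The treated libraries again lay between vehicle 2 and the other vehicle libraries, and the log2 difference went from -0.77 as deposited to 0.26 with the copy.

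mt-Nd4 and mt-Nd5 encode the large antiporter-like subunits of the membrane arm, and mt-Nd6 encodes the subunit read from the opposite strand. mt-Nd4 with its partial copy was at 285, 1331 and 241 TPM with vehicle, against 359, 379 and 347 TPM with 25-HC. mt-Nd5 was at 236, 1038 and 205 TPM with vehicle, against 267, 266 and 253 TPM with 25-HC. mt-Nd6 was at 294, 1232 and 223 TPM with vehicle, against 284, 303 and 256 TPM with 25-HC. In these 3 mRNAs vehicle 2 was 5.53-fold, 5.06-fold and 5.54-fold above vehicle 3, and the groups overlapped. Their log2 differences of -0.32, -0.49 and -0.62 rest on that library and were 0.46, 0.25 and 0.13 without it. mt-Nd6 and mt-Nd5 are neighbours on opposite strands, and the strand setting of the counting is not given in the sources used here, so reads from precursor RNA of the opposite strand could count for either. The ratio of mt-Nd6 to mt-Nd5 was 1.25, 1.19 and 1.09 in vehicle and 1.06, 1.14 and 1.01 in 25-HC.

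Complex III, the cytochrome bc1 complex, has a single mitochondrially encoded subunit, cytochrome b, which carries its haem groups in the membrane. mt-Cytb was at 465, 954 and 596 TPM with vehicle, against 1089, 1095 and 1066 TPM with 25-HC. All treated libraries were above all vehicle libraries, by 1.61-fold in the means and 1.82-fold over vehicle 3 (log2 difference 0.75, SE 0.28, limma adjusted p = 0.389). After median-ratio rescaling the log2 difference was 0.12 and the groups overlapped. Its coefficient of variation among the 25-HC libraries was 1.40%.

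Complex IV, cytochrome c oxidase, has a catalytic core made of 3 mitochondrial products, and with copies added these transcripts differed in direction. On deposited rows the log2 differences were 1.22 for mt-Co1, 2.26 for mt-Co2 and 0.16 for mt-Co3. mt-Co1 encodes the subunit that holds the oxygen-reducing centre, and on deposited values it was at 879, 633 and 1419 TPM with vehicle, against 2167, 2182 and 2117 TPM with 25-HC. With Gm29216 added it was at 1410, 1260 and 1705 TPM with vehicle, against 2502, 2556 and 2458 TPM with 25-HC, again without overlap (1.72-fold, log2 difference 0.79, SE 0.16, limma adjusted p = 0.389). With median-ratio rescaling as well, the log2 difference was 0.15 and the groups overlapped. Without vehicle 3 the deposited row of mt-Co1 passed the test (log2 difference 1.53, limma adjusted p = 0.0361). That fit called 5.97% of all genes. The row did not pass with any other single library left out (limma adjusted p = 0.478 without vehicle 1 and 0.142 without vehicle 2).

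mt-Co2 encodes the subunit that takes electrons from cytochrome c. Its own row was at 78.9, 42.3 and 97.6 TPM with vehicle, against 251, 234 and 628 TPM with 25-HC, 5.09-fold higher in the means. With Gm28661 added it was at 1856, 1099 and 1911 TPM with vehicle, against 3450, 3742 and 3423 TPM with 25-HC, which is 2.18-fold (log2 difference 1.17, SE 0.24, limma adjusted p = 0.389). The treated libraries were above all vehicle libraries in both versions, and the larger fold belonged to the row that held a small part of the pair. Without vehicle 2, mt-Co2 with its copy passed the test (log2 difference 0.91, limma adjusted p = 0.0495). That fit called 0.165% of all genes. The deposited row of mt-Co2 did not pass without vehicle 2 (limma adjusted p = 0.167), nor with any other single library left out.

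mt-Co3 encodes the third core subunit. Its own row was at 219, 845 and 187 TPM with vehicle, against 675, 175 and 409 TPM with 25-HC, with full overlap (log2 difference 0.16, limma adjusted p = 0.879). With Gm28437 added it was at 1581, 2275 and 1513 TPM with vehicle, against 1284, 1295 and 1258 TPM with 25-HC. All treated libraries were then below all vehicle libraries, at 0.714 of the vehicle mean and 0.845 of vehicle 3 (log2 difference -0.46, SE 0.19, limma adjusted p = 0.389). Among the 13 mRNAs it was the only one lower in this way.

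Complex V, the ATP synthase, receives 2 subunits from the mitochondrial genome, and their reading frames overlap on a shared mRNA. The 43 bases that end mt-Atp8 and begin mt-Atp6 are shown because reads from them fit both genes, 21.1% of the length of mt-Atp8.
mt-Atp8 and mt-Atp6: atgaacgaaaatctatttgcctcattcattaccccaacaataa
mt-Atp8 encodes a small membrane subunit and has no near-identical copy among annotated transcripts. It was the highest of the mRNAs as deposited, at 1419, 2443 and 2014 TPM with vehicle, against 2715, 2918 and 2584 TPM with 25-HC. The treated libraries were above all vehicle libraries (1.40-fold, log2 difference 0.52, SE 0.22, limma adjusted p = 0.389). Median-ratio rescaling turned the log2 difference to -0.12, with overlap. mt-Atp6 with Gm10925 was at 736, 1428 and 656 TPM with vehicle, against 812, 906 and 816 TPM with 25-HC, with overlap. Its log2 difference was -3.27 on the deposited row and -0.07 with the copy (limma adjusted p = 0.389 and 0.885). The pair shares an mRNA, yet with copies added mt-Atp8 was 1.71- to 3.07-fold above mt-Atp6 in vehicle and 3.17- to 3.34-fold in 25-HC. On deposited rows mt-Atp6 was at 0 in 25-HC 2, so no such ratio exists there. At 204 bases, mt-Atp8 is the shortest of the 13.

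Ordered along the mitochondrial genome, the vehicle libraries differed by stretch. In vehicle 2, relative to the 25-HC mean, the log2 ratio was -0.99 for mt-Co1 and -1.69 for mt-Co2, then 0.76 and 0.83 for mt-Atp6 and mt-Co3. It reached 1.88, 1.99 and 2.13 for the neighbours mt-Nd4, mt-Nd5 and mt-Nd6 and returned to -0.18 for mt-Cytb. Vehicle 1 and 3 stayed closer to each other, from -1.26 (mt-Nd2) to 0.31 (mt-Co3) in vehicle 1 and from -0.92 (mt-Nd2) to 0.24 (mt-Co3) in vehicle 3. Both were above the 25-HC mean at mt-Co3, and for vehicle 3 this held at no other gene. The 25-HC libraries kept within -0.13 and 0.11 of their mean at all 13 genes.

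**Figure D4:**
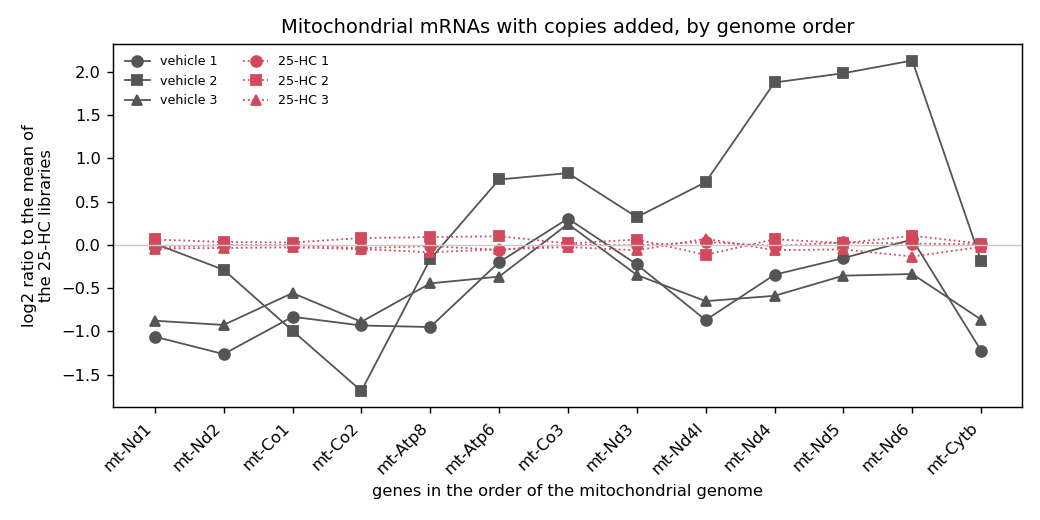
Log2 ratio of each library to the mean of the 25-HC libraries (vertical axis) for the 13 mRNAs with copies added, in the order of the mitochondrial genome (horizontal axis). Vehicle 2 (grey squares) runs from -1.69 at mt-Co2 to 2.13 at mt-Nd6, while all 3 vehicle libraries lie above 0 at mt-Co3.

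Ratios inside a library do not move with its scaling and so give a view of composition. These ratios were chosen after the values were seen and carry no test. With copies added, mt-Co2 stood to mt-Co3 as 1.17, 0.483 and 1.26 in vehicle 1, 2 and 3 and as 2.69, 2.89 and 2.72 in 25-HC 1, 2 and 3. mt-Co1 stood to mt-Co3 as 0.892, 0.554 and 1.13 in vehicle and as 1.95, 1.97 and 1.95 in 25-HC. Both ratios were higher in every treated library, by more than the spread within either group. On the deposited rows alone the ratio of mt-Co2 to mt-Co3 overlapped, at 0.36, 0.05 and 0.523 in vehicle and 0.372, 1.34 and 1.53 in 25-HC.

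As shares of the summed 13 mRNAs with copies added, 4 mRNAs were higher in every 25-HC library (mt-Nd1, mt-Nd2, mt-Cytb and mt-Co2) and 5 were lower (mt-Nd3, mt-Nd5, mt-Nd6, mt-Co3 and mt-Atp6). Over the same sum, 3.53% of all genes were higher and 13.3% lower without overlap. The 13 shares form a closed sum, so higher shares of some lower the others, and genes outside the sum lack this constraint. The log2 differences of mt-Nd3 and mt-Atp6 themselves, with copies added, were 0.08 and -0.07. mt-Co3 held 14.1 ± 1.196% with vehicle and 7.87 ± 0.157% with 25-HC (SD, n = 3 each). mt-Co2 held 13.9 ± 6.51% and 21.8 ± 0.425%, with vehicle 2 at 6.42% (SD, n = 3 each). mt-Cytb was at 5.15 ± 0.536% and 6.67 ± 0.143%, and mt-Nd2 at 3.40 ± 0.291% and 4.62 ± 0.0455% (SD, n = 3 each). mt-Nd5 was lower, at 6.06% in vehicle 2 and 2.31% and 1.84% in vehicle 1 and 3, against 1.58% to 1.66% in 25-HC. The ratio of mt-Nd5 to mt-Nd1 was 0.574, 1.198 and 0.439 in vehicle and 0.317, 0.297 and 0.304 in 25-HC. By complex, complex IV held 47.5%, 27.1% and 45.9% in vehicle and 44.8% to 45.2% in 25-HC, so the opposite differences inside it left its share close to vehicle 1 and 3. On deposited rows complex IV held 22.2%, 13.2% and 27.8% in vehicle and 31.5%, 27.0% and 32.9% in 25-HC, with overlap. mt-Co3 held 4.84 ± 2.23% and 4.32 ± 2.52% there (SD, n = 3 each), with overlap. The deposited share of mt-Atp6 overlapped as well, while the other mRNAs listed above as higher or lower kept that direction without overlap.

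The mitochondrial rRNAs were below all 13 mRNAs in every library once copies were added. mt-Rnr1, the small-subunit rRNA, was at 85.1, 39.6 and 83.1 TPM with vehicle, against 90.3, 99.7 and 92.4 TPM with 25-HC. mt-Rnr2, the large-subunit rRNA, was at 9.50, 13.5 and 10.5 TPM with vehicle, against 16.4, 17.2 and 16.4 TPM with 25-HC. Both were higher in every 25-HC library, as were 22.6% of all genes, with log2 differences of 0.52 and 0.55 (limma adjusted p = 0.398 and 0.389). Both overlapped after median-ratio rescaling. Without vehicle 2 the log2 differences were 0.16 and 0.68, and after quantile normalization they were 0.25 and 0.00051. The rRNAs are cut from the same precursor, yet mt-Rnr1 was 8.95-, 2.94- and 7.94-fold above mt-Rnr2 in vehicle and 5.52-, 5.79- and 5.65-fold above it in 25-HC. Whether the libraries were selected for poly(A) tails is not given in the sources used here. All 22 tRNAs, 59 to 75 bases long, were listed at 0 in all 6 libraries, and a listed 0 for so short an RNA can be a failed estimate.

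**Figure D5:**
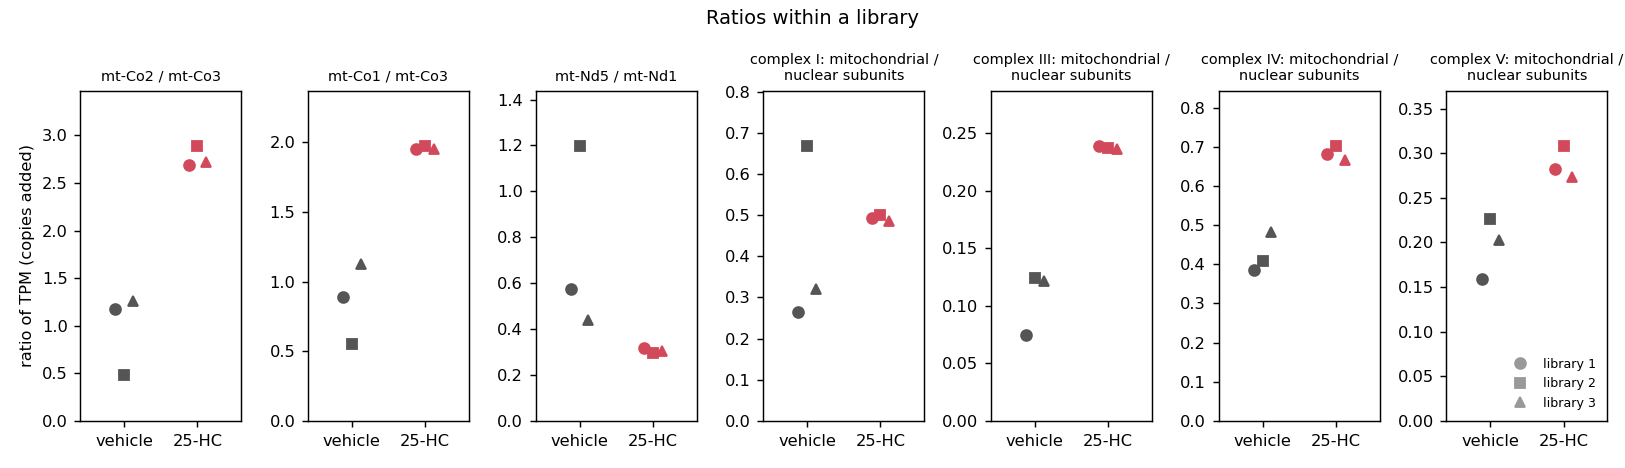
Ratios of TPM within each library (vertical axes, from 0; copies added) for vehicle and 25-HC, with 1 point per library. Both complex IV ratios on the left and the mitochondrial to nuclear ratios of complexes III, IV and V are higher in all 25-HC libraries, while complex I overlaps through vehicle 2.

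Respiratory complexes are mixed assemblies, so their mitochondrial mRNAs were set against the summed mRNAs of the nuclear subunits of the same complex. For complex III the mitochondrial to nuclear ratio was 0.0749, 0.124 and 0.122 in vehicle 1, 2 and 3 and 0.239, 0.237 and 0.236 in 25-HC 1, 2 and 3. For complex IV it was 0.385, 0.409 and 0.484 in vehicle and 0.682, 0.703 and 0.668 in 25-HC. For complex V it was 0.159, 0.226 and 0.203 in vehicle and 0.282, 0.308 and 0.273 in 25-HC. Each of these ratios was higher in every treated library. That of complex I overlapped, at 0.265, 0.668 and 0.320 in vehicle and 0.493, 0.500 and 0.486 in 25-HC. In complexes III and IV the mitochondrial sums were themselves higher in every treated library. That of complex V overlapped, since vehicle 2 reached 3871 TPM and the treated maximum was 3824 TPM. Its nuclear sum was at least 13173 TPM with vehicle and at most 12513 TPM with 25-HC. The nuclear sum of complex III was also lower in every treated library, and that of complex IV overlapped. Over all 74 nuclear subunits of these complexes, the 13 mRNAs stood at 0.239, 0.360 and 0.299 in vehicle and at 0.444, 0.461 and 0.435 in 25-HC. The summed 13 mRNAs by themselves overlapped, with vehicle 2 highest at 17126 TPM. The 74 subunits summed to at least 37331 TPM with vehicle and at most 36500 TPM with 25-HC. Taken singly over that nuclear sum, 7 of the 13 mRNAs were higher without overlap and 1, mt-Co3, was lower, against 27.5% and 4.68% of all genes.

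The nuclear subunits themselves were not called by limma in either direction. Of 37 subunits of complex I, 2 were higher and 13 lower without overlap, with 1 and 4 of 9 for complex III, 0 and 2 of 11 for complex IV and 0 and 6 of 17 for complex V, against 22.6% and 8.1% of all genes. After median-ratio rescaling 1 was higher and 7 lower for complex I, 1 and 5 for complex III, 0 and 0 for complex IV and 1 and 5 for complex V. Of all genes, 18.7% were higher and 17.9% lower there. As deposited, the median log2 differences of these subunits were -0.24, -0.37, -0.06 and -0.26. Against vehicle 3 alone these medians were -0.04, -0.10, -0.02 and -0.05. Ndufa2 of complex I was at 747 ± 343 TPM with vehicle, against 451 ± 9.48 TPM with 25-HC, and Uqcr10 of complex III at 1593 ± 267 and 1211 ± 24.9 TPM, both lower without overlap (SD, n = 3 each). Cox4i1 of complex IV was at 1882 ± 206 and 1732 ± 24.2 TPM and Atp5b, the catalytic subunit of complex V, at 2800 ± 701 and 3240 ± 145 TPM (SD, n = 3 each), both with overlap. Complex II has only nuclear subunits, and none of its 4 separated, with Sdhd at 382 ± 244 and 524 ± 13.5 TPM (SD, n = 3 each).

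Genes that transcribe and maintain the mitochondrial genome gave no call by limma either. Of 9 tested transcription genes, 1 was higher and 2 were lower without overlap (22.6% and 8.1% of all genes, the shares against which each count of these lists is to be read). Polrmt, the mitochondrial RNA polymerase, was at 30.9, 28.4 and 25.9 TPM with vehicle, against 20.8, 21.7 and 24.2 TPM with 25-HC, lower in every treated library (log2 difference -0.34, limma adjusted p = 0.401). Mrpl12, a ribosomal protein that also binds this polymerase, was at 300 ± 49.7 TPM with vehicle, against 208 ± 9.21 TPM with 25-HC, also without overlap. Tfam, which packages mitochondrial DNA and starts its transcription, overlapped, at 32.1, 6.52 and 42.0 TPM with vehicle, against 39.7, 42.3 and 43.3 TPM with 25-HC. Mterf3, of the transcription termination factor family, was at 11.2 ± 5.97 and 19.0 ± 1.10 TPM (SD, n = 3 each). Among 16 maintenance genes 2 were higher and 0 lower, neither share above that of all genes. After median-ratio rescaling 2 of these 16 were higher and 5 lower, against 18.7% and 17.9% of all genes. Of the 9 transcription genes 1 was higher and 5 were lower after that rescaling. Primpol, which restarts stalled DNA copying, did not overlap, at 1.97 ± 1.31 and 4.73 ± 1.42 TPM, and Rrm2b, a ribonucleotide reductase subunit, did, at 1.29 ± 0.922 and 2.67 ± 0.456 TPM (SD, n = 3 each). Of 7 tested nuclear regulators 1 was higher (22.6% of all genes), the transcription factor Yy1, at 5.97 ± 4.30 and 11.3 ± 0.784 TPM. Gabpa, a subunit of the factor known as NRF-2, overlapped at 2.96 ± 2.70 and 6.71 ± 1.05 TPM (SD, n = 3 each).

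For the processing, stability and decay of the transcripts, 7 of 21 tested genes were higher and 2 lower without overlap, against 22.6% and 8.1% of all genes. Lrpprc, which binds mitochondrial mRNAs and keeps them stable and polyadenylated, was at 3.14, 0.31 and 5.59 TPM with vehicle, against 10.85, 11.29 and 11 TPM with 25-HC. All treated libraries were above all vehicle libraries, by 1.98-fold over vehicle 3 (log2 difference 1.87, limma adjusted p = 0.389), also after median-ratio rescaling. Mtpap, the mitochondrial poly(A) polymerase, was at 3.64 ± 1.88 and 7.60 ± 0.998 TPM (SD, n = 3 each), without overlap. The 2 lower genes were Slirp, at 94.6 ± 31.1 and 55.3 ± 4.67 TPM, and Supv3l1, at 43.1 ± 26.3 and 23.0 ± 2.12 TPM (SD, n = 3 each). Of 13 rRNA modification and assembly genes 3 were higher and 2 lower (22.6% and 8.1% of all genes), with Mettl17 at 11.8 ± 7.16 and 26.8 ± 1.55 TPM (SD, n = 3 each). Rpusd3, a pseudouridine synthase, was lower in every treated library, at 13.4, 19.4 and 15.2 TPM with vehicle, against 8, 12.02 and 9.14 TPM with 25-HC. Of 16 tRNA maturation genes 2 were higher and 1 lower, neither share above that of all genes. After median-ratio rescaling 1 was higher and 4 were lower, against 18.7% and 17.9% of all genes. Qtrt1 and Qtrt2 form the enzyme that puts queuine into tRNAs. Qtrt1 did not overlap, at 34.6 ± 14.9 and 58.6 ± 1.51 TPM, and Qtrt2 did, at 3.50 ± 4.04 and 8.20 ± 2.22 TPM (SD, n = 3 each).

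Of 78 mitochondrial ribosomal proteins 5 were higher and 23 lower without overlap (22.6% and 8.1% of all genes), with a median log2 difference of -0.09 that was -0.10 against vehicle 3 alone. After median-ratio rescaling 2 were higher and 34 lower, against 18.7% and 17.9% of all genes. Mrps34 was at 154 ± 23.4 TPM with vehicle, against 90.7 ± 0.909 TPM with 25-HC, without overlap (SD, n = 3 each). Mrpl34 was at 185, 180 and 148 TPM with vehicle, against 113, 110 and 97.9 TPM with 25-HC. Of 13 tested translation factors 1 was higher and 2 were lower (22.6% and 8.1% of all genes). Mtrf1l, a release factor, was at 4.96 ± 0.407 and 2.92 ± 0.557 TPM, and Mtres1 at 59.7 ± 25.9 and 32.4 ± 3.65 TPM, both lower without overlap (SD, n = 3 each). The shortest sixth of all genes had a median log2 ratio to the 25-HC mean of 0.18 in vehicle 1, -0.051 in vehicle 2 and 0.051 in vehicle 3, and the part of transcript length in these counts was not tested.

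Settings moved the direction of several members. With copies added and median-ratio rescaling, mt-Co2 stayed higher and mt-Co3 lower without overlap, and the other 11 overlapped (18.7% of all genes were higher and 17.9% lower). limma called none of the 13 there, and 0.0165% of all genes. Against vehicle 3 alone, the median log2 difference was 0.60 for the 13 deposited rows and -0.07 for all genes. With 1 vehicle library that fit holds no scatter among vehicle libraries, so no calls are given. Without vehicle 2 and with copies added, 11 of the 13 mRNAs were higher without overlap, mt-Co3 was lower and mt-Nd6 overlapped (23.6% and 16.9% of all genes), with median log2 differences of 0.69 for the 13 and 0.13 for all genes.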

How the data were processed

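RNA of 6 RAW264.7 libraries (3 vehicle, 3 25-HC) was analysed. The kit was TruSeq from Illumina, per the labels' protocols. The build GRCm39 and the tools RSEM, StringTie and HISAT2 are named, without versions or order, per the submitters' processing notes. The authors deposited TPM per gene, with neither depth nor the strand setting of the counting stated. Groups came from sample titles. The 11 empty columns were not used, and 2623 rows without a symbol were kept under their identifiers. limma 3.58.1 (R 4.3.3) was fitted to log2(TPM + 1) of the genes whose mean reached 1 TPM (eBayes with a trend, two-sided, Benjamini-Hochberg threshold 0.05, all 6 libraries, no block). The fit was tested on simulated data with equal scatter in all libraries, so that test does not cover the unequal scatter of the groups here. Log2 differences are on that scale, and folds are ratios of mean TPM. The members and gene lists were chosen with earlier results of these data known. Named genes were all members, the 2 smallest p-values per list of mitochondrial expression and the most abundant nuclear subunit per complex. Polrmt, Tfam and Lrpprc were always named. Gm13341, Snord16a, Slirp, Supv3l1 and the ratios were chosen after values were seen, and comparisons with vehicle 3 alone were not planned. Copies were found with BLAST 2.17.0 against GENCODE release M21 transcripts, another build than that of the files, so no coordinates were taken. A copy was added as its TPM times its length over the gene's length, an alternative chosen after seeing the data. Overlap compares all libraries of both groups. Python 3.11.15, pandas 2.3.3 and matplotlib 3.10.9 were used.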

Additional observations from a re-analysis of the deposited data

How the results depend on the processing

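Tests on the deposited values called 1 gene higher and 0 lower (limma). Higher calls numbered 0 with a pseudocount of 5, with no filter, with a mean of at least 5 TPM and with the replicate block, 4 after quantile normalization, 16 after subtraction of the length trend and 547 against vehicle 3 alone. Lower calls numbered 1 after median-ratio rescaling or quantile normalization, 3 after subtraction of the length trend and 765 against vehicle 3 alone. Leaving out 1 library gave 0 to 671 higher and 0 to 51 lower calls, the largest without vehicle 3. The replicate block used numbers that did not pair the libraries (r = -0.0128, 0.0555 and 0.0296) and called no member. The median of the 13 mRNAs ranged from -0.27 to 0.69 when 1 library was left out, the highest without vehicle 2, and was -0.48 after median-ratio rescaling.

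With copies added, the log2 difference turned to 0.082 for mt-Nd3, 0.26 for mt-Nd4l and -0.46 for mt-Co3. With copies added and without vehicle 2 it was 0.28 for mt-Nd3, 0.46 for mt-Nd4, 0.76 for mt-Nd4l, 0.25 for mt-Nd5, 0.13 for mt-Nd6, -0.27 for mt-Co3 and 0.28 for mt-Atp6. Against vehicle 3 alone, the fit assumes that the lone library varies like the others. The log2 difference there was 0.33 for mt-Nd3, 0.58 for mt-Nd4, 0.63 for mt-Nd4l, 0.35 for mt-Nd5, 0.33 for mt-Nd6 and 0.62 for mt-Rnr2. Median-ratio rescaling gave -0.48 for mt-Co3, -0.12 for mt-Atp8, -0.11 for mt-Rnr1 and -0.056 for mt-Rnr2, and with copies added -1.10 for mt-Co3 and -0.12 for mt-Atp8. Leaving out 1 library gave -0.94 to 0.024 for mt-Nd3, -0.71 to 0.46 for mt-Nd4, -0.92 to 0.25 for mt-Nd5, -1.10 to 0.13 for mt-Nd6 and -0.28 to 0.85 for mt-Co3, the highest values without vehicle 2. The summed 13 mRNAs stood at 0.605 of vehicle after median-ratio rescaling. The share of complex III among them was higher in 25-HC by 3.32 percentage points without mt-Atp8 and by 1.51 with copies added. The cause of these changes was not tested. Depth is unknown, so no counting error could be given.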
